A study of Homo sapiens with 8 samples.

Results

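MAP9, GUCY1A1, GUCY1B1 and CTSO are 4 protein-coding neighbours on the long arm of chromosome 4, examined in PC9 and PC9R lung cancer cells. They are 4 of 24630 genes in the RNA count table, and they were chosen by name because MAP9, GUCY1B1 and CTSO had stood among the genes with the largest excess in PC9R in these same RNA libraries. Their RNA difference between the lines is therefore given as a description, without a test. PC9 is an established human lung adenocarcinoma line with an activating EGFR mutation, sensitive to the EGFR kinase inhibitor gefitinib, and PC9R is a line obtained from it by exposing PC9 to gefitinib for 1 to 2 weeks. Both were grown in DMEM and used at passages 8 to 12. Each line had 2 RNA-seq libraries, 1 list of DNase hypersensitive sites (DHS) and 1 list of H3K4me2 ChIP-seq peaks. Whether PC9R is 1 clone or a pool, and whether the drug was present at harvest, is not stated. Drug exposure and line cannot be told apart in this design. The labels do not say that the 2 RNA libraries came from separate cultures. The p-values below therefore reflect spread among libraries that may be no more than technical repeats.

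GUCY1A1 and GUCY1B1 (GUCY1A3 and GUCY1B3 in older tables) encode the alpha and beta subunits of soluble guanylate cyclase. The alpha-beta pair carries a heme that binds nitric oxide (NO), and binding switches on the synthesis of cyclic GMP, which activates cGMP-dependent protein kinases and ion channels and is degraded by phosphodiesterases. The enzyme is best known for relaxing smooth muscle around vessels and airways. MAP9 encodes a microtubule-associated protein that sits on the mitotic spindle, and CTSO encodes cathepsin O, a cysteine protease of the papain family. DHS mark open chromatin, and dimethylated lysine 4 of histone H3 (H3K4me2) marks promoters and enhancers.

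By the GENCODE 44 annotation lifted to GRCh37 (hg19), MAP9 lay at chr4:156263810-156298117 on the minus strand, GUCY1A1 at chr4:156588000-156658211 and GUCY1B1 at chr4:156680173-156728963 on the plus strand, and CTSO at chr4:156845270-156875018 on the minus strand. Between transcription start sites (TSS) MAP9 and GUCY1A1 were 290 kb apart, GUCY1A1 and GUCY1B1 92 kb, and GUCY1B1 and CTSO 195 kb, so that the 4 starts spanned 577 kb. The genes are not related by sequence family except for the 2 cyclase subunits, and MAP9 and CTSO are transcribed towards the centromere while the cyclase genes run the other way.

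The sequence before 3 of these starts is shown first, because each of them had a DHS peak in PC9R and none in PC9. The RefSeq promoter table of GRCh38.p14 held MAP9, GUCY1A1 and GUCY1B1 (3 of the 4 genes), and its sequences were matched exactly to GRCh37 for their positions. Each run reads 5′ to 3′ on the strand of its gene and stops before the first annotated exon. Capitals mark matches, on either strand, to GGGCGG (a GC box), CCAAT (the box of that name, which reads ATTGG on the other strand) or CACGTG (an E-box).
MAP9 (chr4:156298123-156298367, minus strand, inside the strongest PC9R H3K4me2 peak of the gene): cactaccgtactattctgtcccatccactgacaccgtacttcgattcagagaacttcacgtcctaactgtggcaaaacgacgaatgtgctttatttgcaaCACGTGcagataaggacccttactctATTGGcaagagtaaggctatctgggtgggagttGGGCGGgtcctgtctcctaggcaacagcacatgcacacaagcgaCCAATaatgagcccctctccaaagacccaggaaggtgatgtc
GUCY1A1 (chr4:156587750-156587877, plus strand, up to the first base of its PC9R H3K4me2 peak): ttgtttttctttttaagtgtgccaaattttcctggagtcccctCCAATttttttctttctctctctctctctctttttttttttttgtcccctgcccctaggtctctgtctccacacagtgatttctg
GUCY1B1 (chr4:156679923-156680143, plus strand, at the highest-scored H3K4me2 peak of the window): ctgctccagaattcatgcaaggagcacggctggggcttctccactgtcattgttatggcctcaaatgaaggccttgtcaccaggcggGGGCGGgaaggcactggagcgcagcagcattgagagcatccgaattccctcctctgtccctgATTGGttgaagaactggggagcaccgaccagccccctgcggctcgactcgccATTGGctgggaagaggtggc

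Over the whole 300 bases of a table entry (250 before the start and 50 after it), MAP9 had 2 CCAAT, 1 GGGCGG and 1 CACGTG. GUCY1B1 had 2 CCAAT and 2 GGGCGG. The first of the GUCY1A1 starts in the table had 2 CCAAT and 1 GGGCGG, of which 1 pair overlapped. Neither TGANTCA (the AP-1 motif) nor TATAAA was matched in these 3 entries. Over all 35116 promoters of that table, 34.6% held CCAAT, 45% GGGCGG, 7.26% CACGTG, 7.71% TGANTCA and 11.5% TATAAA. Matches of the first 2 motifs are thus common in promoters. A match is no evidence of a bound factor, and the absence of a match says only that these letters are not in these windows.

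CpG content differed among the starts. The MAP9 promoter held 14 CpG (observed over expected 0.68) and the GUCY1B1 promoter 17 (0.57), near the table medians of 14 and 0.58. GUCY1A1 has 2 starts in the table: the first held 5 CpG (0.27) and the second, downstream of it, 29 (0.75). The PC9R DHS peak of GUCY1A1 covered 0 bases of the first promoter and 99 of the second, which was 72% G and C.

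In RNA, 3 of the 4 genes were near 0 in PC9 and at 15.9 to 126 CPM (the usual per-library scale of counts, here with TMM factors) in PC9R, while GUCY1A1 had few counts in either line. MAP9 had 0 and 2 counts in the first and second PC9 library and 2501 and 2120 in those of PC9R. In CPM these were 0, 0.133, 71.2 and 126. The PC9R mean was 98.6 ± 38.8 CPM (SD, n = 2), the lines did not overlap, and the second PC9R library was the higher one. The counts gave a PC9R to PC9 ratio of 2085, with an exact 95% counting interval from 577 to 17223.

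GUCY1B1, the beta subunit, had 0 and 1 counts in PC9 and 829 and 746 in PC9R. Its levels were 0, 0.0667, 23.6 and 44.3 CPM in the same order, with a PC9R mean of 34 ± 14.7 (SD, n = 2). Its pattern over libraries was that of MAP9, with the second PC9R library above the first. The ratio was 1421 (255 to 56176), a wide interval because it rests on 1 count in PC9.

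CTSO had 3 and 4 counts in PC9 and 962 and 267 in PC9R, or 0.0941, 0.267, 27.4 and 15.9 CPM. The means were 0.181 ± 0.122 in PC9 and 21.6 ± 8.15 in PC9R (SD, n = 2 each), again with no overlap. The ratio was 158.4 (76.7 to 395). Unlike MAP9 and GUCY1B1, CTSO was higher in the first PC9R library than in the second.

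GUCY1A1, the alpha subunit that the beta subunit pairs with, had 0 counts in both PC9 libraries and 10 and 4 in PC9R. That is 0.285 and 0.238 CPM, at least 4.21-fold higher in PC9R when 3 counts over the 2 PC9 libraries are taken as the floor. Within a single library 3 counts correspond to between 0.0854 and 0.2 CPM, so the PC9R values lie just above the level of detection. GUCY1A1 did not pass the filter on low counts and entered no model. In bulk RNA, fewer cells with a transcript and less of it per cell cannot be told apart, for GUCY1A1 as for the other 3 genes.

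**Figure D1:**
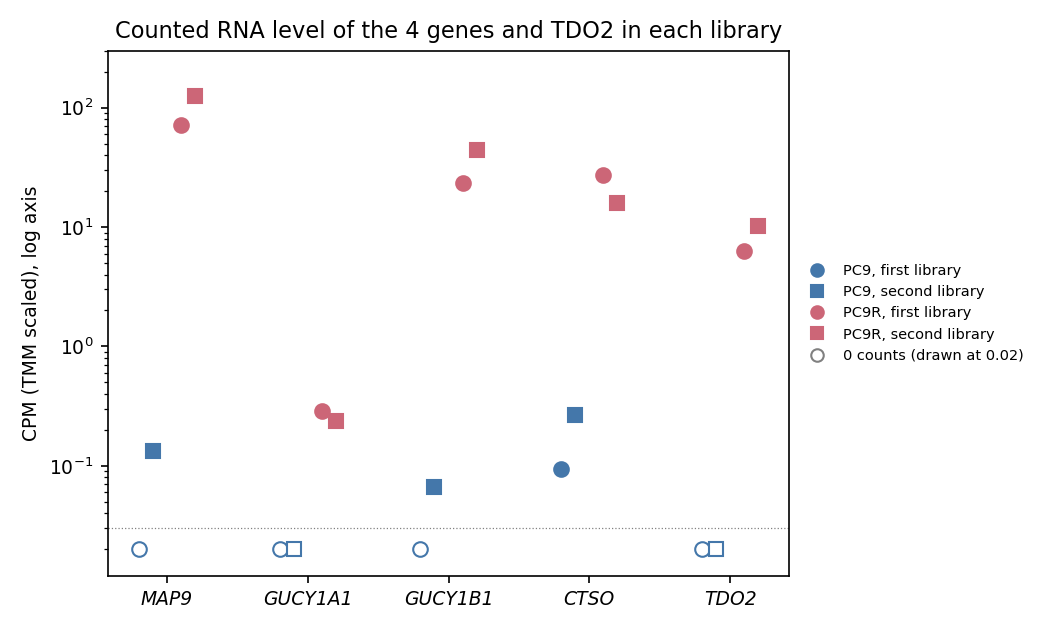
RNA level of MAP9, GUCY1A1, GUCY1B1, CTSO and the neighbour TDO2 in each of the 4 RNA libraries, in CPM on a log axis, with 1 point per library. Open symbols below the dotted line are libraries with 0 counts. MAP9 (71.2 and 126 CPM), GUCY1B1 (23.6 and 44.3) and CTSO (27.4 and 15.9) are above 15 CPM only in PC9R, and GUCY1A1 reaches 0.285.

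The low GUCY1A1 count has a limit from the way reads were counted. The count files list RefSeq accessions, and GUCY1A1 has 7 of them while MAP9, GUCY1B1 and CTSO have 1 each. In PC9R, 1 GUCY1A1 accession had 8 and 1 counts, another 2 and 0, another 0 and 3, and the other 4 had none. Among coding genes with both a DHS and an H3K4me2 peak within 1 kb of the TSS in PC9R, the median level was 65.8 CPM for the 3802 genes with 1 accession, 1.37 for 3314 genes with 2 to 6, and 0.24 for 196 genes with 7 or more. Of these 196, 141 (71.9%) were under 1 CPM and 103 were at or under the level of GUCY1A1, against 352 of 3802 (9.26%) under 1 CPM with 1 accession. The labels do not describe what was done with reads that several accessions share, so the low GUCY1A1 values are not read as low expression.

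Per kilobase of transcript, which is the scale on which genes can be compared, MAP9 (7.33 kb) was at 9.72 and 17.2 CPM per kb in the 2 PC9R libraries. GUCY1B1 (3.38 kb) was at 6.98 and 13.1, and CTSO (2.9 kb) at 9.44 and 5.47. MAP9 had the highest value in each library, but its range overlapped that of GUCY1B1, and GUCY1B1 overlapped CTSO. MAP9 and CTSO did not overlap, but came close in the first library (9.72 and 9.44). Lengths are those of the canonical GENCODE transcript rather than the RefSeq transcript counted, and other lengths could change this order. GUCY1A1 (9.21 kb) was at 0.0309 and 0.0258 CPM per kb, below the others in both libraries.

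The second libraries of both lines had lower total counts than the first and were richer in transcripts of low GC content. Total counts were 32515891 and 16013058 in PC9, then 32502455 and 16715426 in PC9R. Over 147 genes with under 35% GC the second library exceeded the first by a median log2 of 1.27 in PC9 and 1.00 in PC9R. For 1700 genes with 35 to 40% GC the medians were 1.00 and 0.81, and for 2001 genes with 60% GC or more -1.18 and -1.11. The library numbers are not described as batches in the labels. MAP9 has 33.3% GC and GUCY1B1 39.8%, and within PC9R they were 0.82 and 0.91 higher in the second library on the log2 scale. CTSO, with 39.7% GC, differed in the opposite direction, by -0.79. The part of GC content in these differences was not tested.

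The ratios can also be given library by library, in pairs that share only a library number. MAP9, GUCY1B1 and CTSO were chosen for their excess in these libraries, so their agreement between pairs is a description and no check. MAP9 was at least 757-fold higher in the first pair and had a ratio of 944 (261 to 7802) in the second. GUCY1B1 was at least 251-fold higher in the first pair and had a ratio of 665 (119 to 26282) in the second. The CTSO ratios were 291 (99.3 to 1414) and 59.5 (23 to 220). For GUCY1A1 the values, with 3 counts as the floor in PC9, were at least 3.03-fold and at least 1.19-fold. They leave out counting error in PC9R and rest on 10 and 4 counts. MAP9, GUCY1B1 and CTSO were higher in PC9R in each pair. For GUCY1A1 the 4 counts of the second pair are too few to place a direction.

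The cells behind these values had the markers of epithelium in both lines. All 6 epithelial markers exceeded 1 CPM, with summed levels from 10552 to 24186 CPM per library. Of 5 smooth muscle markers, the tissue in which soluble guanylate cyclase is best known, none reached 1 CPM; their sum was 0.267 to 0.847 CPM in PC9 and 0.357 to 0.797 in PC9R, and MYH11 was at 0 in every library. The leukocyte list summed to at most 0.484 CPM. Among the endothelial genes, KDR was at 0 to 0.0594 CPM, while PECAM1, CDH5 and VWF exceeded 1 CPM in at least 1 library and the list summed to 22.4 and 12.7 CPM in PC9 and 46.8 and 20.1 in PC9R. Of the fibroblast list only COL1A1 exceeded 1 CPM, DCN was at 0, and the list summed to 24.4 and 6.34 CPM in PC9 and 65.2 and 14.1 in PC9R. COL1A1 had a log2 fold change of 1.37 (edgeR adjusted p = 0.967, with library number as a term 0.00642). PTPRC, CD14 and MYH11 have 4 accessions each, ACTA2 and ACTG2 have 2 and DCN has 6, so their low counts are not read as low expression. The part of these genes in the values of the 4 genes was not tested.

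In chromatin, the 1 Mb at chr4:156000000-157000000 had 1 listed peak in PC9 and 49 in PC9R. PC9 had 0 DHS and 1 H3K4me2 peak there, and PC9R had 14 DHS and 35 H3K4me2 peaks. The PC9R peaks covered 4430 bp for DHS (median length 252 bp) and 15912 bp for H3K4me2 (median 330 bp), and the single PC9 peak covered 1132 bp. No PC9R DHS overlapped a DHS of PC9 by at least 1 bp. Of the 35 PC9R H3K4me2 peaks 2 overlapped the PC9 peak, both at the CTSO start, and at a reciprocal overlap of 50% there was none. With 1 library per line and mark, these differences have no replicate check. The share of 24-base stretches of a PC9R DHS that occurred again on chromosome 4 ran from 0% to 49%. It was 0% for the DHS at the MAP9, GUCY1A1 and GUCY1B1 starts and 17.5% for that at CTSO. The part of repeated sequence in the DHS count was not tested.

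Each of the 4 starts had a DHS and at least 1 H3K4me2 peak within 1 kb in PC9R. Scores are the authors' own, on a scale that no source gives, so they serve only to place a peak within its list. At the MAP9 start the DHS peak chr4:156297637-156298109 touched an exon and lay 8 bp from the TSS. It had a score of 11.3, above 95.1% of the PC9R DHS list and the highest of the 14. It lay within an H3K4me2 peak at chr4:156297342-156298691 (score 52.5, percentile 92.3 of its list), with a smaller H3K4me2 peak of score 4.82 just inside the gene.

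At the beta subunit gene GUCY1B1 the DHS peak chr4:156680086-156680645 covered the TSS (score 10.1, percentile 92.2). The H3K4me2 peak chr4:156679895-156681064 around it had a score of 99.7, the highest of the window and rank 838 of 117861 in its list. GUCY1A1, despite its 14 counts in PC9R, had marks of similar standing. Its DHS peak chr4:156588265-156588662 lay 265 bp inside the gene (score 8.61, percentile 85.5), within an H3K4me2 peak at chr4:156587877-156588813 (score 81.1, percentile 98). Another H3K4me2 peak followed at chr4:156588995-156589543 (score 51, percentile 91.7). The H3K4me2 peaks of GUCY1B1, GUCY1A1 and MAP9 were the 3 highest-scored of the window, and its 3 highest-scored DHS were those of MAP9 and GUCY1B1 and 1 at the NPY2R start, at chr4:156129127-156129896 (score 9.38).

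CTSO differed from the other 3 in both marks. Its DHS peak chr4:156875378-156875594 was intergenic, 360 bp upstream of the TSS, and had a score of 5.35, which placed it at percentile 38.8 of its list. The 2 PC9R H3K4me2 peaks, chr4:156874381-156874885 and chr4:156874982-156875581, had scores of 22.7 and 20.7 (percentiles 72.8 and 69.9). The start was also the only one marked in PC9, by 1 H3K4me2 peak at chr4:156874391-156875522 with a score of 52.3, above 85.7% of the PC9 list. CTSO thus had H3K4me2 listed in PC9 beside 3 and 4 RNA counts and no DHS.

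**Figure D2:**
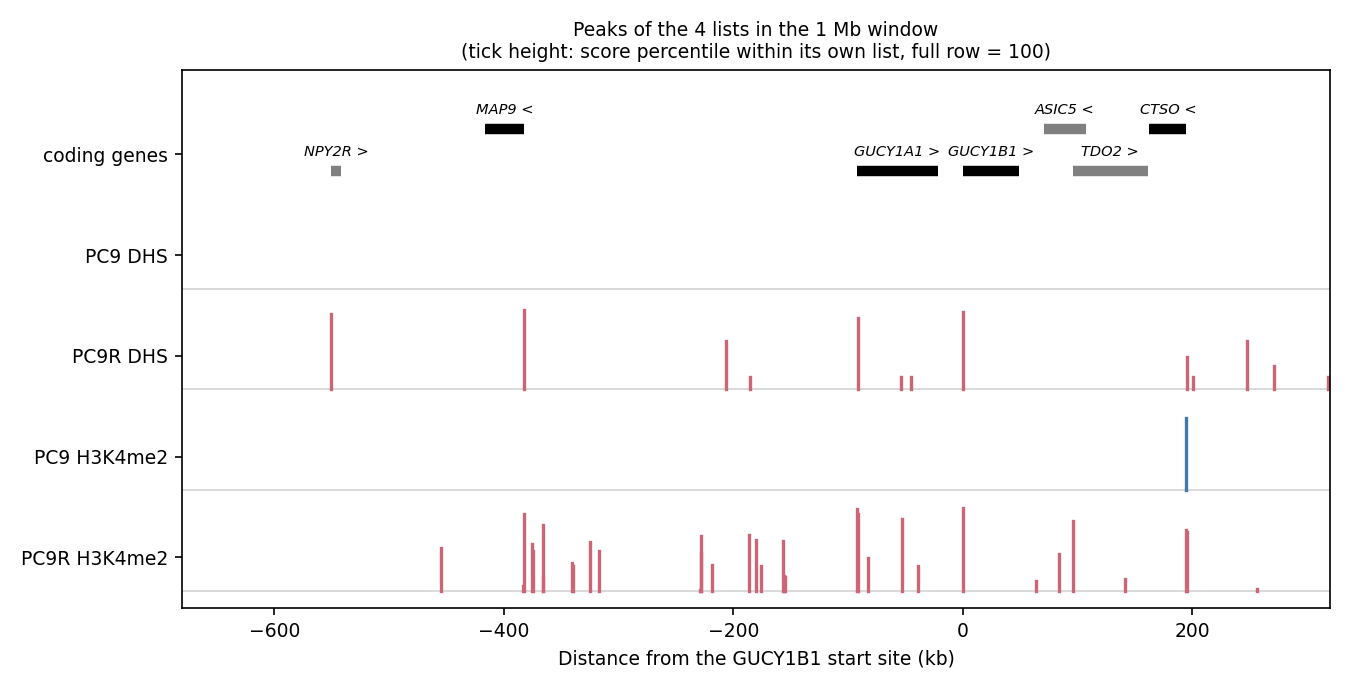
Peaks of the 4 lists over the 1 Mb window, by distance from the GUCY1B1 start site in kb, with coding genes above (arrowheads give the strand). The height of a tick is the percentile of the peak's score within its own list. PC9 has 0 DHS and 1 H3K4me2 peak, at CTSO, and PC9R has 14 and 35.

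The marks at the 4 starts can be set beside those over all 19866 coding genes. Within 1 kb of the TSS, 42.4% of genes had a DHS in PC9R and 31.7% in PC9, and 70.8% and 67.9% had H3K4me2. The 4 genes had 4 DHS-marked starts in PC9R and 0 in PC9, and 4 and 1 starts with H3K4me2. MAP9, GUCY1A1 and GUCY1B1 fell among 190 coding genes with both marks in PC9R and none in PC9. The opposite class, with the marks in PC9 alone, held 14 genes. CTSO fell among 2567 genes with H3K4me2 in both lines and a DHS in PC9R alone. The PC9R DHS list was 3.03 times as long as that of PC9 and the H3K4me2 list 1.38 times, which moves with the sizes of the PC9R-only classes; when the PC9R list was held to its 19648 highest-scored DHS, 3 of the 4 starts and 21.8% of coding genes kept a DHS, and the CTSO peak was lost.

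RNA of those classes can be given for the genes that passed the filter on low counts. Over all 12660 genes tested by edgeR's quasi-likelihood test, 32 (0.253%) differed between the lines, 24 (0.190%) higher and 8 (0.0632%) lower in PC9R, at a Benjamini-Hochberg adjusted p under 0.05. With library number added as a term, 2631 (20.8%) passed, of which 1420 (11.2%) were higher and 1211 (9.57%) lower. Without the term, leaving out 1 library gave 83 calls (first PC9 library left out), 102 (second PC9), 126 (first PC9R) or 254 (second PC9R), and upper quartile scaling gave 0. The 4 genes are left out of the class counts that follow, because their RNA chose them. In the class of MAP9, GUCY1A1 and GUCY1B1, 30 other genes were tested, with a median log2 fold change of 1.56 against -0.01 over all genes. Of these 30, 4 were higher and 0 lower without the term, and 16 higher and 0 lower with it. Genes near 0 in PC9 could pass the filter on low counts only through PC9R, so these counts and the median describe the genes tested and nothing is read from them about the class. In the class of CTSO, 1912 other genes were tested with a median of 0.12. Of these, 4 were higher and 1 lower without the term, and 319 higher and 143 lower with it.

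Between and beyond the genes, DHS and H3K4me2 peaks of PC9R mostly lay apart. Only 4 of the 14 DHS overlapped an H3K4me2 peak, and these were the 4 at the starts of MAP9, GUCY1A1, GUCY1B1 and CTSO. By annotation 5 DHS touched an exon, 1 lay in an intron and 8 were intergenic, and of the H3K4me2 peaks 8 touched an exon, 6 lay in introns and 21 were intergenic. By their midpoints, 18 of the 35 H3K4me2 peaks and 3 of the 14 DHS lay in the 290 kb between MAP9 and GUCY1A1. These 18 covered 6864 bp, and the strongest lay 15448 bp upstream of MAP9 at chr4:156313565-156314151 (score 27.5, percentile 78.1). No peak had its midpoint in the 22 kb between the 2 cyclase genes, although the peaks at the GUCY1B1 start reached into it. The body of GUCY1A1 held 5 H3K4me2 peaks, among them an intronic one at chr4:156626844-156627239 with a score of 37.1 (percentile 85.4). The body of GUCY1B1 held only the pair of peaks at its start.

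The 116 kb between GUCY1B1 and CTSO held 5 H3K4me2 peaks and no DHS in PC9R. After CTSO, to the end of the window, there were 5 DHS and 2 H3K4me2 peaks by their midpoints, counting those at its start. In score the window's peaks were not high as a set. The median DHS score was 5.07 against 5.8 over the PC9R list, and the median H3K4me2 score was 11.5 against 12.2. The 4 strongest H3K4me2 peaks, all at the MAP9, GUCY1A1 and GUCY1B1 starts, had percentiles from 91.7 to 99.3, and the next was the intronic GUCY1A1 peak at 85.4. When the PC9R lists were held to as many top-scored peaks as the PC9 lists, 4 DHS and 26 H3K4me2 peaks remained.

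Among 3113 windows of 1 Mb in the genome, the DHS difference of this one was common and its H3K4me2 difference less so. A gain of 14 DHS or more from PC9 to PC9R occurred in 1087 windows (34.9%), and a gain of 34 H3K4me2 peaks or more in 194 (6.23%). There were 760 windows without any PC9 DHS, and 67 of them held 14 or more in PC9R. Only 3 windows had at most 1 H3K4me2 peak in PC9 and at least 35 in PC9R. The window of the 4 genes was the only one of the 192 on chromosome 4, and the others started at 82 Mb of chromosome 9 (1 and 52 peaks) and at 87 Mb (0 and 37). The chromosome 4 medians per window were 1 and 7 DHS and 9.5 and 18 H3K4me2 peaks, in PC9 and PC9R.

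**Figure D3:**
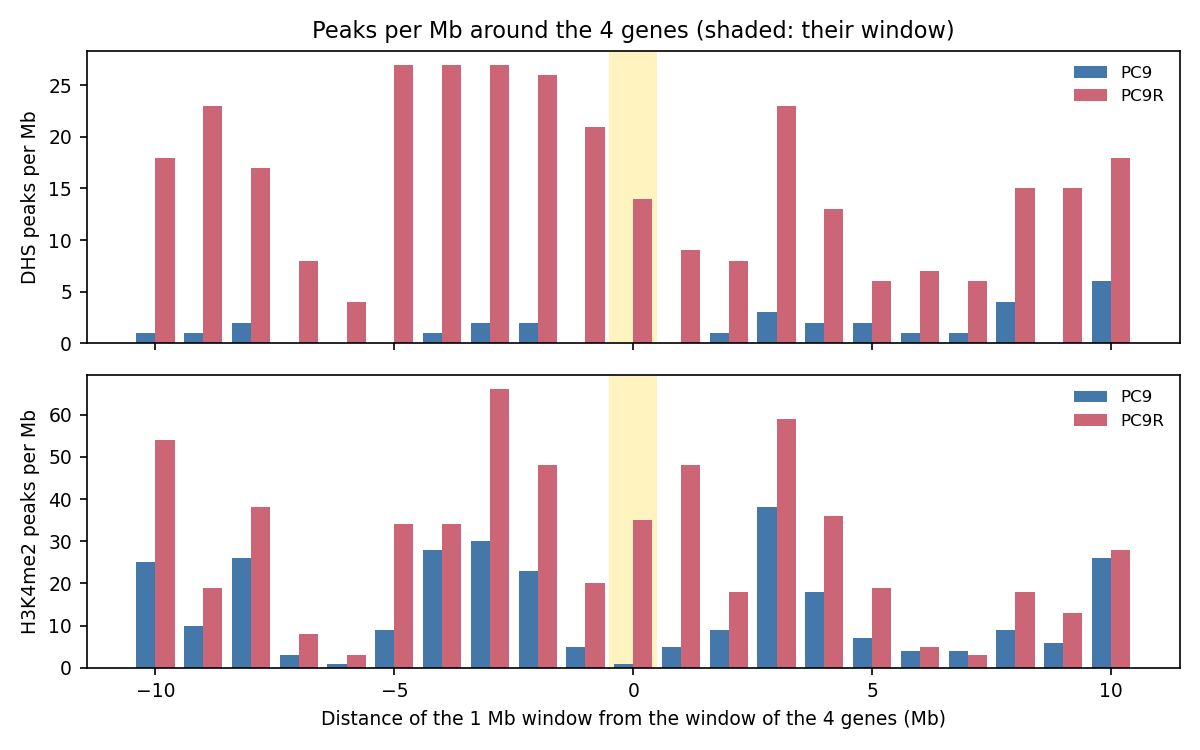
Number of DHS peaks (upper panel) and H3K4me2 peaks (lower panel) per 1 Mb window of chromosome 4 in PC9 and PC9R, by distance in Mb from the shaded window that holds the 4 genes. The window has 0 and 14 DHS peaks and 1 and 35 H3K4me2 peaks. Several windows upstream have more PC9R DHS, and the H3K4me2 peaks of PC9 are also few in the windows on either side (5 and 5).

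The 4 genes lie inside a longer stretch without DHS in PC9. The nearest PC9 DHS ended at 154388809 and began at 158745384, which leaves a gap of 4.36 Mb. Of 19623 gaps in the PC9 list 36 were at least as long. Inside it PC9R had 64 DHS and 122 H3K4me2 peaks, and PC9 had 18 H3K4me2 peaks. PC9 H3K4me2 was therefore not absent from the stretch as a whole. Around the genes its nearest peaks other than that at CTSO ended at 155665723, which is 632 kb before the MAP9 start, and began at 157505234, which is 630 kb after the CTSO start.

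Genes around the 4 were taken as all 28 others in the count table with a TSS in the 6 Mb that reach from 2 Mb before the window to 3 Mb after it. Of these, 10 passed the filter on low counts, and 9 had 0 counts in all 4 libraries. By edgeR's test 1 of the 10 was higher and 0 lower in PC9R, against 0.190% and 0.0632% of all genes tested, and with the library term 2 were higher and 0 lower, against 11.2% and 9.57%. Leaving out the second PC9 or the first PC9R library also gave 2. The median log2 fold change of the 10 was 0.14. Most tested neighbours thus did not pass, and those that passed in either fit were TDO2 and LRAT. Neither could pass the filter on low counts without PC9R libraries, so nothing is read from these calls about the neighbours as a set.

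TDO2, which encodes tryptophan 2,3-dioxygenase, an enzyme that opens the ring of tryptophan, has its TSS at 156824848 between GUCY1B1 and CTSO, 145 kb from the GUCY1B1 start. It had 0 counts in both PC9 libraries and 223 and 171 in PC9R, or 6.35 and 10.2 CPM. The PC9R libraries lay above both PC9 libraries, and TDO2 was at least 119-fold higher over both pairs, at least 67.5-fold in the first and at least 50.8-fold in the second. It rose by edgeR's quasi-likelihood test (adjusted p = 0.0388, and 0.000217 with the library term), although under upper quartile scaling the adjusted p was 0.0563. With 0 counts in PC9, TDO2 could pass the filter on low counts only through PC9R, and it is the 1 neighbour called without the term. Unlike the 4 genes, TDO2 had no peak of either mark within 1 kb of this TSS in any list. The nearest PC9R H3K4me2 peak was 2792 bp away, and one of score 33.9 (percentile 83.4) lay at chr4:156775598-156776477, at an upstream exon of a longer annotated TDO2 transcript. ASIC5, an ion channel gene, overlaps TDO2 on the other strand; it had 0 counts in PC9 and 3 and 1 in PC9R, and the labels do not say whether counting used strand.

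LRAT, which encodes lecithin retinol acyltransferase, an enzyme that stores vitamin A as esters, lies 1015 kb before the GUCY1B1 start. It was at 0.0941 and 1.33 CPM in PC9 and 4.64 and 43.5 in PC9R. The lines did not overlap, and the libraries of each line differed widely. By its PC9 libraries alone LRAT could not pass the filter on low counts, so it entered the test only with the help of PC9R. Its log2 fold change was 5.16 (SE 1.45, edgeR adjusted p = 0.255), and it passed with the library term (adjusted p = 0.00011). Each of the 4 libraries moved this value. The log2 fold change was 4.16 without the first PC9 library (edgeR adjusted p = 0.112) and 7.92 without the second (edgeR adjusted p = 0.0014). It was 6.03 without the first PC9R library (edgeR adjusted p = 2.21e-05) and 2.77 without the second (edgeR adjusted p = 0.203). Its TSS had H3K4me2 in both lines and a DHS in PC9R, the class of CTSO. PLRG1, a splicing factor gene 1209 kb before the GUCY1B1 start, was at 3.89 and 6.47 CPM in PC9 and 3.87 and 11.1 in PC9R, with a log2 fold change of 0.53 (SE 0.72, edgeR adjusted p = 0.999). PLRG1 has 2 accessions, so these are only the reads counted. NPY2R, a neuropeptide Y receptor gene before MAP9, had 0 counts in all libraries although its start carried the third highest DHS of the window in PC9R.

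**Figure D4:**
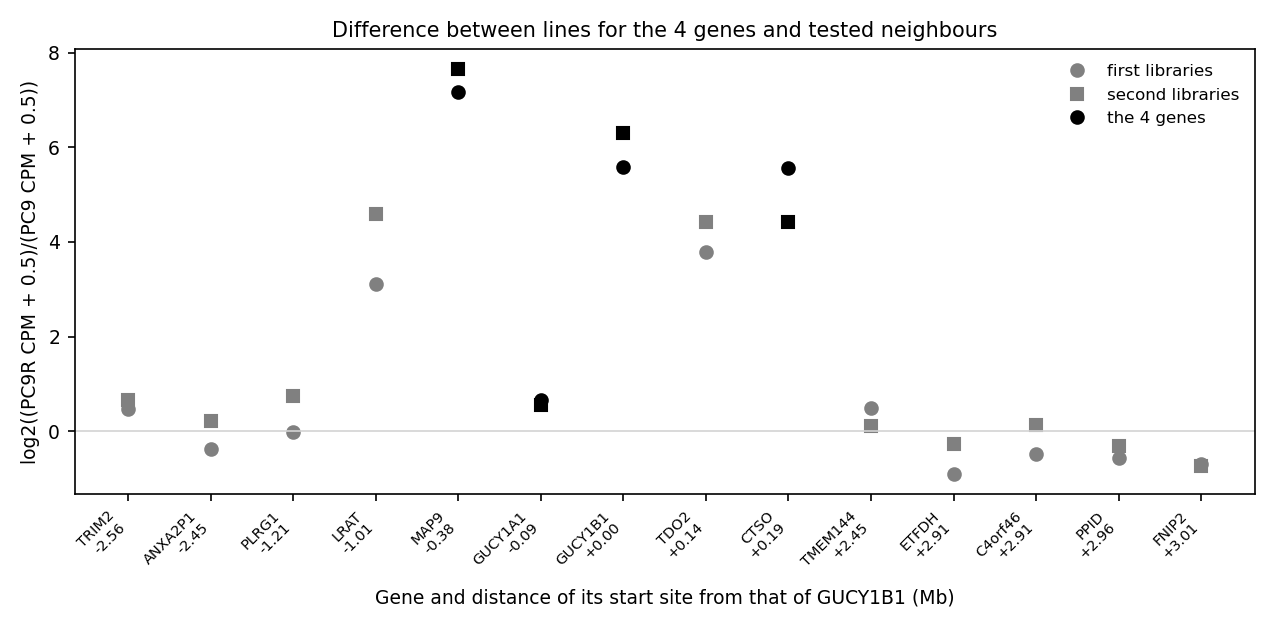
Difference between PC9R and PC9 as log2((CPM + 0.5)/(CPM + 0.5)) in the first and in the second pair of libraries, for the 4 genes (black) and the 10 tested neighbours (grey), ordered by TSS with the distance from GUCY1B1 in Mb under each name. MAP9, GUCY1B1, CTSO, TDO2 and LRAT are above 3 in both pairs. The other 8 neighbours, and GUCY1A1 at its low counts, are below 1 in size.

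None of the other listed NO-cGMP pathway genes passed the test without the library term. That test called only 0.253% of all genes, so a count of 0 says little about the list. Of 37 genes listed (NO synthases, cyclases, kinases, phosphodiesterases, cGMP exporters and targets), 15 passed the filter on low counts and 9 had 0 counts in all 4 libraries. More than 1 accession was listed for 24 of the 37, which limits their counts as it does for GUCY1A1. None of the 15 was called by edgeR's test, while 3 had an unadjusted p under 0.05. With the library term 3 were higher and 3 lower, against 11.2% and 9.57% of all genes. The median log2 fold change of the 15 was 0.15, against -0.01 over all genes tested. Partners of the cyclase subunits were among the genes without counts: GUCY1A2, which encodes the other alpha subunit that can pair with the beta subunit, and PRKG1 and PRKG2, the cGMP-dependent kinases, had 0 counts in all libraries. They are named for their roles, after their values were seen. GUCY1A2 and PRKG1 have 2 accessions each and PRKG2 has 6, so as with GUCY1A1 a low count is not read as low expression.

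The 3 genes that were higher with the library term were at low levels. PDE11A, PDE6A and NOS3 were all low in PC9 and could pass the filter on low counts only through PC9R. The numbers of higher and lower genes in the NO-cGMP list are therefore not weighed against each other. PDE11A, a phosphodiesterase gene of 4 accessions that acts on cAMP and cGMP, was at 0.0314 and 0 CPM in PC9 and 0.826 and 0.535 in PC9R. It had 1 count in PC9, a ratio of 34.3 (5.79 to 1390), and an edgeR adjusted p of 0.183, or 0.00954 with the term. PDE6A, the catalytic subunit of the rod phosphodiesterase, was at 0.188 and 0.133 CPM against 1.31 and 1.49 (3.04 in log2, SE 0.80, edgeR adjusted p = 0.22, with the term 0.00765). NOS3, the endothelial NO synthase, was at 0.408 and 0.334 CPM against 2.16 and 1.07 (2.11, SE 0.77, edgeR adjusted p = 0.493, with the term 0.0158). In the other direction ABCC4, a transporter that exports cyclic nucleotides, was at 70.1 and 137 CPM against 43.9 and 52.1 (-1.11, SE 0.59, edgeR adjusted p = 0.837, with the term 0.0189). For each of these 4 genes the lines did not overlap, which with 2 libraries per line adds nothing to the calls that named them. NOS3 has 4 accessions and ABCC4 has 2, so their values cover only the reads counted. A few genes outside the rule for names are given for their place in the pathway, chosen after their values were seen. PDE5A, with 3 accessions, is the phosphodiesterase best known for degrading the cGMP made by this cyclase. It was at 0.784 and 0.267 CPM in PC9 and 1.77 and 0.238 in PC9R, with overlap. NPR2, a membrane guanylate cyclase, was at 7.97 and 7.47 CPM against 7.8 and 7.31.

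Microtubule and spindle genes gave the setting for MAP9. Of 36 listed, 27 were tested. Without the term 0 were called, against 0.253% of all genes, so this count says little about the list. In that fit 2 had an unadjusted p under 0.05. With the term 2 were higher and 1 lower. As shares, 2 and 1 of 27 stand against 11.2% and 9.57% of all genes. The median log2 fold change was -0.18. MAP2, a neuronal microtubule-associated protein gene with 4 accessions, was at 2.63 and 4.8 CPM in PC9 and 29.8 and 28.2 in PC9R (2.97, SE 0.66, edgeR adjusted p = 0.138, with the term 0.000596). MAP1B, of the same broad class, was at 86 and 176 CPM against 336 and 630 (1.89, SE 0.61, edgeR adjusted p = 0.37, with the term 0.000508). DCLK1, a doublecortin-like kinase gene with 4 accessions, was at 0.627 and 9.88 CPM against 0.228 and 1.96. Its libraries overlapped between the lines (-2.29, SE 1.34, edgeR adjusted p = 0.906, with the term 0.00964). By its PC9R libraries alone DCLK1 could not pass the filter on low counts. The mitotic kinases AURKA and PLK1, which work at the spindle where MAP9 is found, had log2 fold changes of 0.71 and -0.40 (edgeR adjusted p = 0.999 for both). They were named after their values were seen, and AURKA has 6 accessions.

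Relatives of CTSO and their inhibitors were the last of the 3 lists. Of 20 papain-family cathepsin, legumain and cystatin genes, 15 were tested, with a median log2 fold change of 0.90. Without the term 1 was higher and 0 lower (7 had an unadjusted p under 0.05), against 0.190% and 0.0632% of all genes. With the term 8 were higher and 1 lower, against 11.2% and 9.57%. Leaving out the second PC9R library gave 4 calls without the term. The gene called in both was CSTA, which encodes cystatin A, an inhibitor of papain-family cathepsins and a protein of the cornified envelope. CSTA was at 0.314 and 0.4 CPM in PC9 and 13.6 and 21.6 in PC9R (5.62, SE 0.77, edgeR adjusted p = 0.0388), and under upper quartile scaling the adjusted p was 0.0563. The secreted cystatins CST4, CST2 and CST1 passed with the term alone. CST4 had 0 counts in PC9 and 1.74 and 0.594 CPM in PC9R, at least 21.4-fold higher (edgeR adjusted p = 0.124, with the term 0.00377). CST2 had 2 counts in PC9 and was at 3.65 and 1.72 CPM in PC9R, with a ratio of 70.8 (19.3 to 590; edgeR adjusted p = 0.0788, with the term 0.000774). CST1 had 3 counts in PC9 and was at 1.2 and 0.713 CPM in PC9R, with a ratio of 16.2 (5.27 to 81.2; edgeR adjusted p = 0.249, with the term 0.00933). These 3 genes are near-identical copies of one another, so reads could have been split among them. Like CSTA, they were near 0 in PC9 and could pass the filter on low counts only through PC9R. The numbers of higher and lower genes in this list are therefore not weighed against each other. The lower gene was CTSC, which encodes cathepsin C, an enzyme that activates serine proteases of immune cells; it was named after its values were seen. CTSC, with 3 accessions, was at 792 and 1431 CPM in PC9 and 118 and 254 in PC9R (-2.58, SE 0.61, edgeR adjusted p = 0.172, with the term 0.000163).

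**Figure D5:**
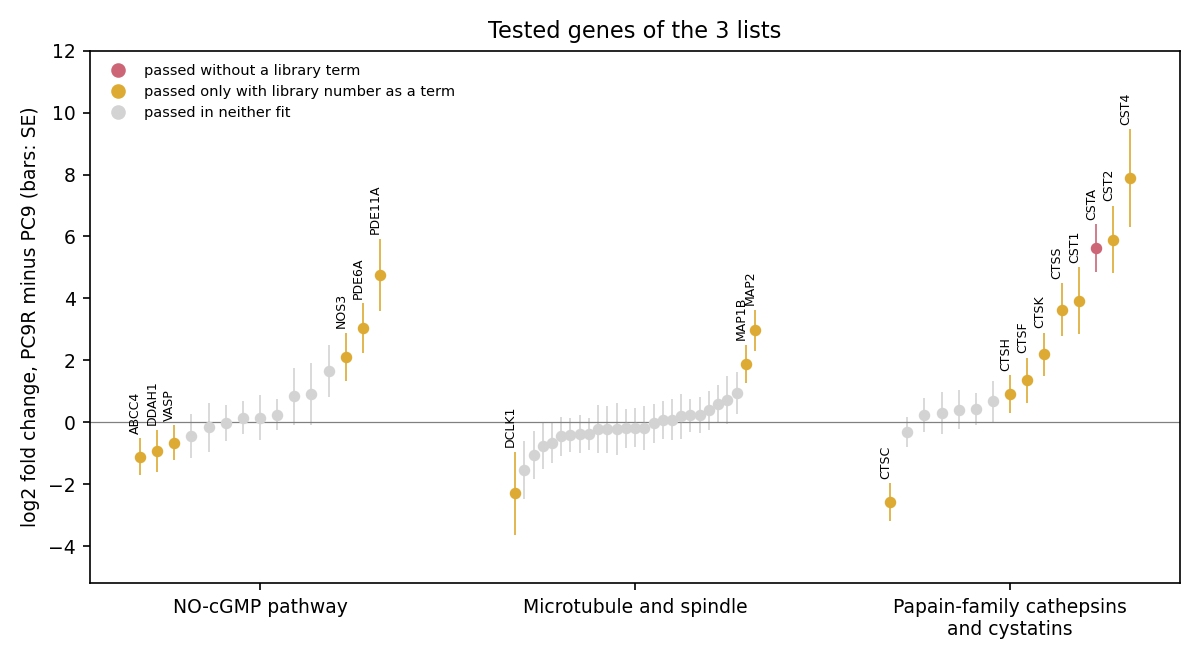
Log2 fold change, PC9R minus PC9, with its standard error as bars, for each tested gene of the NO-cGMP list (15 genes), the microtubule and spindle list (27) and the cathepsin and cystatin list (15), ordered by size within a list. Red marks the gene that passed without the library term (CSTA), yellow those that passed only with it, and grey those that passed in neither. Fitted values of genes near 0 counts in PC9, such as CST4, depend on the prior count.

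The genes most like each of the 4 over the 4 RNA libraries were found by the Euclidean distance in log2(CPM + 0.5) among genes passing the filter. For MAP9 these were ADAM23 (distance 2.12), SLC6A14 (2.43) and IVL (2.77), and GUCY1B1 at 2.18 had 1 other gene closer. For GUCY1B1 they were FRAS1 (1.24), SLC6A14 (1.32) and UNC13B (1.39), with CTSO at 1.55 and 5 genes closer, and MAP9 at 2.18 and 10 closer. For CTSO they were CLDN8 (0.295), IVL (0.683) and COL4A4 (0.802), with GUCY1B1 at 1.55 and 13 genes closer. CLDN8, which encodes a tight junction claudin, followed CTSO library by library at 0.0941, 0.4, 30 and 14.4 CPM. GUCY1A1, at its low counts, was nearest to PCDHB10 (0.394), FAT4 (0.499) and LAMA1 (0.628). Of these nearest genes FRAS1 and FAT4 lie on chromosome 4, and none lies in the window. Over 4 libraries of 2 lines this likeness mostly restates the difference between the lines.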

How the data were processed

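RNA was counted in 4 libraries, 2 per line, and DHS and H3K4me2 peaks were called in 1 library per line and mark. The authors deposited whole-number counts per RefSeq accession and, per peak list, a score per peak, whose scale is not stated. Per the submitters' processing notes, TopHat, HTSeq, DESeq and MACS2 were used with hg19; their versions and settings are not given in the sources used.

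Groups followed line and assay in the sample titles. Counts were summed per gene by the RefSeq table of GRCh38.p14, used for names only (41552 of 42811 accessions matched), and multi-accession genes held 6.74% to 7.07% of counts. Positions came from GENCODE 44 lifted to GRCh37. PC9R was compared with PC9 over 12660 genes, by the two-sided quasi-likelihood test of edgeR 4.0.16 (R 4.3.3) after filterByExpr and TMM scaling, at a Benjamini-Hochberg adjusted p below 0.05, without a library term, and library number as a term was the listed alternative. The term leaves 1 residual degree of freedom. The script was tested on simulated data. Others were upper quartile and RLE scaling, other filters, DESeq2 1.42.0, leaving out each RNA library, a single accession per gene, other windows, overlaps and peak subsets. Total counts ran from 16013058 to 32515891. Ratios use exact 95% counting intervals, and floors use 3 counts over the libraries compared. The intervals cover counting error only, and the floors leave out the counting error of the PC9R counts.

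The members, lists and rules were chosen with earlier results of these data known. Named genes were the 4 genes, up to 4 genes per list called in either fit with the largest absolute log2 fold change, tested genes up to 1 Mb on either side of the window, and the 3 nearest profiles of each of the 4 genes, with peaks within 1 kb of their starts and the 3 highest-scored of each list in the window. Peaks were compared at an overlap of at least 1 bp. Tables were handled with pandas 2.3.3, numpy 2.4.6 and scipy 1.17.1 in Python 3.11.15, and figures were drawn with matplotlib 3.10.9. The sequence under 1 peak is not reported here.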

Additional observations from a re-analysis of the deposited data

How the results depend on the processing

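MAP9, GUCY1B1 and CTSO had a positive log2 fold change under every scaling, filter, model and left-out library run. They were chosen for their excess in PC9R in these libraries, so this sign was bound to hold and is no check. GUCY1A1 has no such values, only counts. Genes called numbered 32, and 0 with upper quartile scaling (919 had an unadjusted p under 0.05), 440 with no filter on low counts, 381 with DESeq2, 2631 with the replicate block and 83 to 254 with 1 library left out. The NO-cGMP list went from 0 to 1 with no filter and to 6 with the block. The microtubule list went from 0 to 1 with no filter, 1 with DESeq2 and 3 with the block. The cathepsin list went from 1 to 0 with upper quartile scaling, 6 with no filter, 5 with DESeq2, 9 with the block and 1 to 4 with 1 library left out. The neighbour list went from 1 to 0 with upper quartile scaling, 2 with no filter, 2 with DESeq2, 2 with the block and 1 to 2 with 1 library left out. The fitted log2 fold change, without a test, was 10.88 for MAP9 (9.46 to 14.43 with 1 library left out), 10.25 for GUCY1B1 (8.87 to 12.89) and 6.30 to 7.75 for CTSO with 1 library left out; for counts near 0 it depends on the prior count. GUCY1A1 had 14 counts in PC9R, 9 from its highest accession and 4 to 10 with 1 library left out. With the window extended by 1 Mb on each side the PC9R peaks numbered 44 DHS and 103 H3K4me2 and PC9 had 11 H3K4me2; with the top-scored peaks alone PC9R had 4 DHS. At a reciprocal overlap of 50% the shared H3K4me2 peaks were 0 in either line, against 2 and 1. The other 68 values kept their direction and side of the threshold or moved little. With 1 library left out, the line left with a single library is assumed to vary like the other. The causes of these moves were not tested. The first and second libraries share only a number in the labels, and their differences correlate at 0.819 between lines over 12660 genes. The low counts in PC9 limit every ratio given.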
